A study of Mus musculus with 20 samples.

Results

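The transcripts described here encode the motors, filaments and filament regulators of the cytoskeleton, as they appear in maps of N6-methyladenosine (m6A, a methyl mark on adenosines of messenger RNA) from mouse thymocytes. Members are the rows of the peak tables for DP and iNKT cells whose gene symbol names a kinesin, dynein, myosin, tubulin, actin, actin-related protein, Arp2/3 subunit or actinin, or is Ezr, Msn, Stmn1, Macf1, Iqgap1, Marcks, Lsp1, Hcls1 or Ssh2. The rule gave 307 of 25992 peaks, in 83 of 9003 genes. The DP table held 181 of them in 66 genes, the iNKT table held 126 in 66 genes, and 49 genes were in both tables.

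The study compared mice carrying Mettl3fl/fl and CD4-cre with WT mice, all labelled C57BL/6 and aged 6 to 8 weeks. Mettl3 is the catalytic subunit of the m6A writer, and a Cre driven by Cd4 sequences deletes it in thymocytes from about the DP stage on. Invariant natural killer T (iNKT) cells, sorted as live (7AAD-) cells that bind a CD1d tetramer and carry TCRbeta, gave 3 Mettl3-deleted and 3 WT replicates, each with an m6A immunoprecipitate and an input library. CD4 and CD8 double-positive (DP) thymocytes, the tetramer-negative stage from which iNKT cells arise, gave 2 Mettl3-deleted and 2 WT replicates of each library type. The labels give the WT mice no Cre and no floxed allele, and do not say whether mice were pooled. They name both m6A-seq and m6A-LACE-seq, a variant for little RNA, without saying which cells had which, so cell type and protocol may not be separable. The tables hold no value per library, so no spread between replicates can be set against any difference below, and the depth is unknown. In sorted bulk RNA, a change in every cell and a change in a fraction of the cells cannot be told apart.

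Each row of the authors' deposited table is a stretch of exons enriched in the immunoprecipitate over input, with the authors' own log2 fold change between the genotypes and its false discovery rate (FDR). A peak is called here at an FDR of 0.05. The sign of the change is not stated in the files. It was read as Mettl3-deleted over WT, which is likely but not certain. The authors' gene list for DP cells holds 4336 of 4337 genes with a negative peak and 0 of 2281 genes without one, the iNKT list holds 5339 of 5343 and 0 of 1431, and the deletion removes a writer. With the sign turned, every "lower" below would be "higher". No row is named Mettl3 in either table, so the deletion could not be checked. Peaks were listed for 5 of 9 markers of DP thymocytes in the DP table and for 8 of 8 markers of iNKT cells in the iNKT table. The iNKT table also listed 4 of the 9 DP markers (Cd8a, Cd8b1, Rag1 and Satb1), each with a lower peak. Of the 8 iNKT markers, 5 had a lower peak in iNKT cells, and 2 of these also a higher one. In DP cells 2 of the 5 DP markers had a higher peak (Rag1 and Satb1) and 0 a lower one. There, 4 of the 8 iNKT markers had peaks, none called. Of the markers of further cell types, thymic epithelium had 0 of 5 in both tables, B cells 1 of 4 in DP and 2 of 4 in iNKT, and myeloid and dendritic cells 2 of 6 and 1 of 6. A peak marks methylated RNA and is not an expression level.

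As background, kinesins and dyneins carry cargo along microtubules, which are built from alpha- and beta-tubulin, and myosins pull on actin filaments. The Arp2/3 complex branches actin filaments, actinins bundle them, and the proteins ezrin and moesin tie them to the plasma membrane. T cells use these systems to migrate through the thymus, to round up and divide, and to move the centrosome and receptors towards a contact. The m6A writer acts within a short sequence context, often with the letters GGAC around the methylated A.

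Sequence was at hand around annotated transcript starts, and peaks of 9 member genes reached into it. Of 9 windows reached by an iNKT member peak, the 3 with a called peak are shown, and the one with the highest fold enrichment. The other 5, in Actr3, Myo1f, Myo9a, Tubb4b and a second of Myo18a, had uncalled peaks of -0.17 to 1.65 (log2, the authors' deposited table). The Iqgap1 and Myo18a windows lie at starts within the gene, where the peaks are centred 12.2 kb and 14.3 kb from the gene's outer start. Each is 300 bases of the transcript strand from RefSeq (GRCm38.p6, the assembly of mm10), 250 before to 50 after the annotated start, written 5′ to 3′, with the bases inside the peak in capitals.
Ezr (chr17:6782731-6783030, minus strand): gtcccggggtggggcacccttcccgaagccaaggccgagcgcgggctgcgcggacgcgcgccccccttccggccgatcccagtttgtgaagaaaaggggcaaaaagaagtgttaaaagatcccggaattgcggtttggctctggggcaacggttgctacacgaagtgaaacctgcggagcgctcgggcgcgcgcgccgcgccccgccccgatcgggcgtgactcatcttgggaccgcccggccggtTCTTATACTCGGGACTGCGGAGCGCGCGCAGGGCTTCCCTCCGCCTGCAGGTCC
Arpc5 (chr1:152766292-152766591, plus strand): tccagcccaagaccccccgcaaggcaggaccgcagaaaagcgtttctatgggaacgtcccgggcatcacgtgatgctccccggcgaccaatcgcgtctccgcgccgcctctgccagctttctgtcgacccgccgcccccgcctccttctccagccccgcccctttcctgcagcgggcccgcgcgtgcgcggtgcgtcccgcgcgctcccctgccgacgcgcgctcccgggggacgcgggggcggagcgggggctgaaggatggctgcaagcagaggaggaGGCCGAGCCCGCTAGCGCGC
Myo18a (chr11:77776985-77777284, plus strand): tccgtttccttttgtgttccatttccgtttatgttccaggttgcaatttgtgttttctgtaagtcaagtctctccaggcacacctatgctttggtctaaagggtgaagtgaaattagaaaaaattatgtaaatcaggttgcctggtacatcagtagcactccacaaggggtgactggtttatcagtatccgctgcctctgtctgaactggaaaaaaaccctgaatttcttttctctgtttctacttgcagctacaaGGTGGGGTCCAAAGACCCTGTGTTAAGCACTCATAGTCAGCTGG
Iqgap1 (chr7:80803282-80803581, minus strand): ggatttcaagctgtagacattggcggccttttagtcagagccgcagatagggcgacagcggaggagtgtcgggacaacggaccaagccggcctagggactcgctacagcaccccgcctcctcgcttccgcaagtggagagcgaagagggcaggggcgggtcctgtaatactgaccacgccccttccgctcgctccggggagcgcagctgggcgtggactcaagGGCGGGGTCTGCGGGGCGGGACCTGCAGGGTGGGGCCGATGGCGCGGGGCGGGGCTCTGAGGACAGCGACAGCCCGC

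Ezr, Arpc5 and Myo18a had a lower iNKT peak at these starts, while Iqgap1 had a strongly enriched one that was not called. In the authors' deposited table the log2 fold changes were -3.37 (FDR 2.3e-04) for Ezr, -2.29 (FDR 1.1e-07) for Arpc5 and -4.40 (FDR 0.012) for Myo18a. The Iqgap1 peak had a fold enrichment over input of 282 and a log2 fold change of -0.40 (FDR 0.76) in the authors' deposited table, the highest enrichment of any member peak. The letters GGAC, searched on the transcript strand, lay 1 time under the Ezr peak, 2 times under the Iqgap1 peak and 0 times under those of Arpc5 and Myo18a, within 54, 77, 20 and 44 bases. They occur in 65.6% of all 32851 such windows and in 18.9% of their last 50 bases, so a match here is a description and not a site. The windows hold 77 of the 91 nt of the Iqgap1 peak, but 54 of 210 for Ezr, 20 of 151 for Arpc5 and 44 of 510 for Myo18a. The rest of these peaks was not analysed here for sequence.

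In DP thymocytes, Mettl3 deletion went with small falls in a few transcripts of this group. Lower methylation was called at 11 peaks, 6.08% of the 181, against 0.743% of all peaks in the authors' deposited table. They lay in 9 genes: Myh9 with 3 peaks, and Ezr, Stmn1, Lsp1, Marcks, Hcls1, Actr3, Iqgap1 and Macf1 with 1 each. Their median log2 fold change was -0.40, against -0.47 for all 100 lower DP peaks in the authors' deposited table, so small falls were not particular to the group. A single peak rose, in Ssh2, which is 0.552% of the members against 0.483% of all peaks in the authors' deposited table. Counted by gene, 13.6% of member genes had a lower peak, against 1.44% of all genes. The median log2 fold change over all 181 peaks was -0.10 (95% interval from ranked values -0.198 to -0.037), against 0.0 for all peaks in the authors' deposited table. The interval treats peaks as independent, though Macf1 alone gave 22 of them, and does not measure spread between replicates. With 1 peak per gene, the one with the smallest peak p-value, the median was -0.056 over 66 member genes. Over all 6618 genes it was 0.005 in the authors' deposited table. Since the members were chosen from rows of the same tables, with earlier results known, these shares and medians describe the list and were not tested.

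More peaks were called in iNKT cells, with larger listed changes. Of 126 member peaks, 36 fell and 9 rose in the authors' deposited table, which is 28.6% and 7.14%, against 19.8% and 5.84% of all peaks. The lower peaks lay in 27 genes (40.9% of member genes, against 26.2% of all genes) and the higher ones in 7 (10.6% against 9.64%). The 4 DP-thymocyte markers listed in iNKT cells each had a lower peak as well (Rag1 -3.87 and Cd8a -2.59 in the authors' deposited table), Satb1 also a higher one. So did 5 of the 8 iNKT markers, 2 of which also had a higher peak. The part of either set of markers in the result was not tested. Called members had a median of -2.995 for lower and 5.42 for higher peaks (log2, from values of the authors' deposited table). Over all called iNKT peaks these medians were -3.64 and 5.04. The median of all member peaks, -0.40 (95% interval -1.12 to -0.17, again treating peaks as independent), was nearer to 0 than that of the whole table, -0.98. With 1 peak per gene, the one with the smallest peak p-value, this order turned: the median was -1.56 over 66 member genes and -1.32 over 6774 genes in the authors' deposited table. 

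Stricter rules left fewer members, and the whole table shrank as well. With both directions together, 12 DP and 45 iNKT member peaks were called. That is 6.63% and 35.7% of members, against 1.23% and 25.7% of all peaks in the authors' deposited table. At an FDR of 0.01, 6 DP members were lower (3.31%, against 0.297% of all peaks) and 1 higher (0.552%, against 0.193%). In iNKT cells 30 were lower (23.8%, against 16.4%) and 8 higher (6.35%, against 5.0%). With a change of at least 2-fold besides an FDR of 0.05, 1 DP member was lower (0.552%, against 0.0743% of all peaks) and 1 higher (0.552%, against 0.171%). In iNKT cells 35 were then lower (27.8%, against 19.5%) and 8 higher (6.35%, against 5.65%).

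**Figure D1:**
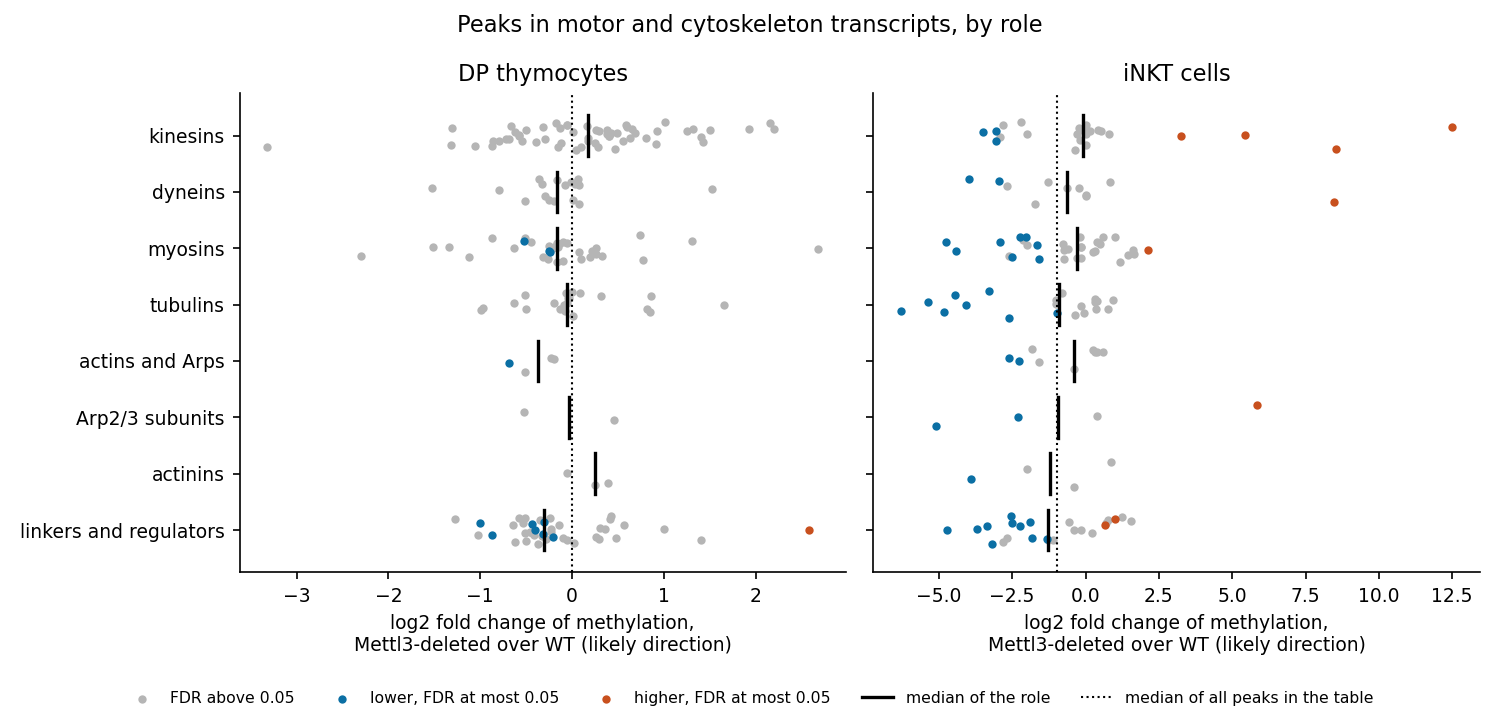
Log2 fold change of methylation (Mettl3-deleted over WT, likely direction) for each member peak by role, DP at left and iNKT at right on different scales. Points are peaks, coloured by call, the bar is the median of the role and the dotted line the median of all peaks in that table. All 59 DP kinesin peaks are grey, and the point at 12.5 in iNKT cells is Kif21b.

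Kinesins are plus-end directed microtubule motors in most cases. None of their 59 DP peaks in 21 genes passed, where 1.23% of all DP peaks did. Of the 59, 24 were negative (median 0.18, range -3.32 to 2.20 in the authors' deposited table), where 49.7% of all DP peaks were. The most negative value was named Kif7 (FDR 0.3), but it lay in the neighbouring gene Ticrr, as did 5 of the 10 peaks with that name. Kif3c, a subunit of kinesin-2, had 8 uncalled DP peaks and none in the iNKT table. Of these, 5 lie on its strand, 1 of them negative, and 3 on the other strand. In iNKT cells, 3 of 23 kinesin peaks fell (13.0%, against 19.8% of all iNKT peaks) and 4 rose (17.4%, against 5.84%).

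Kif21b, a kinesin that restrains microtubule growth, carried called peaks of both signs in iNKT cells. Over exon 11 of 35 (chromosome 1, 136152295 to 136154172) its peak had a log2 fold change of -3.06 (FDR 1.0e-117) and a fold enrichment of 31.8 in the authors' deposited table. A 3' UTR peak near the end of the gene (136175663 to 136176112) fell by 3.05 (FDR 4.0e-12) in the authors' deposited table. Between them, 2 peaks rose in the authors' deposited table, a stretch of 60 nt by 12.5 (FDR 1.0e-105) and one of 211 nt by 3.27 (FDR 8.5e-08). The 60 nt peak was weakly enriched, at 2.06 over input in the authors' deposited table. The DP peaks that cover the 2 lower sites showed -0.05 (FDR 0.59) and 0.42 (FDR 0.13) in the authors' deposited table, both uncalled.

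Among the other kinesins, Kif5b, the heavy chain of kinesin-1, fell by 3.51 (FDR 1.9e-07) in iNKT cells in the authors' deposited table. Kif22, a chromosome-binding mitotic kinesin, rose by 8.55 (FDR 2.0e-16) at a 3' UTR peak in the authors' deposited table. A peak named after Kif2c, a microtubule depolymerase, rose by 5.42 in the authors' deposited table, but it lies outside that gene.

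Dyneins, the minus-end directed motors, had 17 DP peaks with none called (1.23% of all DP peaks were) and 11 negative (49.7% of all were). Their 11 iNKT peaks included 2 that fell, or 18.2% against 19.8% of all. Dync1i2, an intermediate chain that links cytoplasmic dynein to its cargo adaptors, fell by 3.98 (FDR 2.5e-04) in the authors' deposited table. Dync1h1, the heavy chain that holds the motor, fell by 2.94 (FDR 2.9e-07) in its 3' UTR, at an enrichment of 60.7 in the authors' deposited table. The DP peaks at these sites showed 0.0076 (FDR 0.65) and -0.17 (FDR 0.64) in the authors' deposited table, both uncalled. The rise of 8.46 listed for Dynlrb1 in the authors' deposited table belongs to a peak outside that gene, within the span of Itch.

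Myosins had their DP calls in Myh9 alone, which encodes the heavy chain of non-muscle myosin IIA, the myosin of cortical contraction. Its 3 lower DP peaks follow one another along the 3' part of the coding exons on chromosome 15. From 3' to 5' they ran from 77763850 to 77765503, from 77765683 to 77769328 and from 77769786 to 77775906. By the authors' deposited table their changes on the log2 scale were -0.52 (FDR 2.2e-10), -0.25 (FDR 6.8e-07) and -0.24 (FDR 3.8e-08). The last DP peak, further 5′, had 0.09 and was not called (FDR 0.64 in the authors' deposited table).

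In iNKT cells 8 of 31 myosin peaks fell (25.8%, against 19.8% of all iNKT peaks) and 1 rose. Myh9 had 9 of these peaks, of which 5 fell and none rose. By the authors' deposited table these had -2.23 at exon 39, -1.57 at exon 33, -1.64 at exon 26, -2.04 at exon 22 and -2.50 at exon 2, of 41 exons. Those at exons 39, 33 and 26 were weakly enriched, at 1.33, 1.58 and 1.56 over input, against 3.75 for the uncalled peak at exon 36. Not called were peaks at exon 36 (-0.17, FDR 0.15) and exon 24 (0.33, FDR 0.078), one at the 5' UTR (0.25) and one at exon 3 of a 3-exon transcript (1.45) in the authors' deposited table. Uncalled Myh9 peaks thus lie between called ones along the gene.

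Myo6, the myosin that walks towards the minus end of actin, had the largest myosin fall in iNKT cells, with -4.76 in the authors' deposited table, close to the threshold (FDR 0.049). A DP peak sharing 270 nt with it had 2.68 and was not called (FDR 0.41 in the authors' deposited table). Myo9b, an unconventional myosin, fell by 2.92 (FDR 6.9e-07) in iNKT cells in the authors' deposited table. Myo18a, another unconventional myosin, had called peaks of both signs near the internal start shown above. Its stretch at that start fell by 4.40, and the next one, in exon 2, rose by 2.12 (FDR 0.047) in the authors' deposited table. A single DP peak covers both stretches, with a log2 fold change of -0.10 (FDR 0.64) in the authors' deposited table. All 11 DP peaks of Myo18a were uncalled, and 10 of them were negative.

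**Figure D2:**
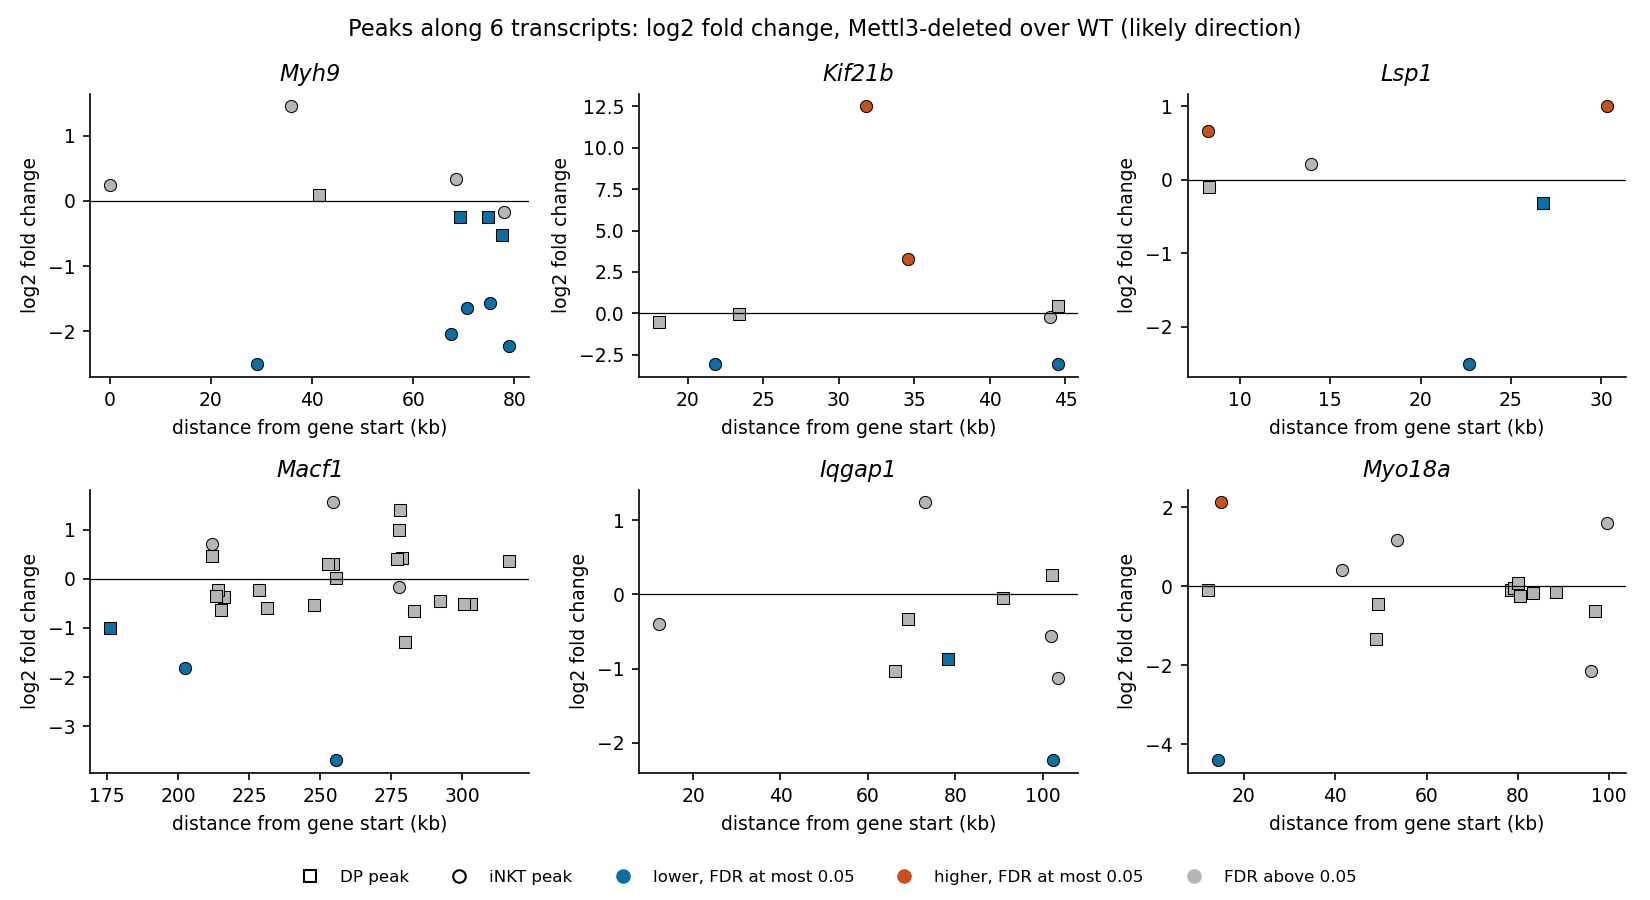
Log2 fold change (Mettl3-deleted over WT, likely direction) of each peak against its distance in kb from the gene start, for 6 members, with DP peaks as squares and iNKT peaks as circles, coloured by call. Scales differ between panels, and for Kif21b and Lsp1 the strand was taken from the peaks. Myh9 has its 3 lower DP peaks in the 3' part of the gene and a further lower iNKT peak 29.2 kb from its start, and Kif21b, Lsp1 and Myo18a hold iNKT peaks of both signs.

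Tubulins, the building blocks of microtubules, fell at 8 of 20 iNKT peaks (40.0%, against 19.8% of all iNKT peaks), with 0 rises (5.84% of all). None of their 21 DP peaks was called, where 1.23% of all DP peaks were. Tubb2b and Tubb2a, which encode beta-tubulins, had the largest falls that lie within the named gene. In the authors' deposited table Tubb2b fell by 6.29 (FDR 4.0e-14), and Tubb2a had -4.84 and -3.28 in exon 4 and -4.46 in the 3' UTR, all called. The Tubb2a peak with -4.84 was weakly enriched, at 1.62 over input. Tubb5, the beta-tubulin common in dividing cells, fell by 0.98 (FDR 1.0e-09) at an exon 4 peak with an enrichment of 3.22 in the authors' deposited table. Its 3' UTR peak, with an enrichment of 7.45, had -0.14 and was uncalled (FDR 0.22 in the authors' deposited table). The alpha-tubulin Tuba4a fell by 2.62 (FDR 6.3e-04) at 1 of its 3 iNKT peaks, and the others had 0.32 (FDR 0.76) in the authors' deposited table. Tubgcp3, a component of the gamma-tubulin complex that seeds microtubules, fell by 4.06 (FDR 8.7e-04) in the authors' deposited table. Beta-tubulin genes are close copies of each other, and the sources used here do not say how reads were divided among them. The peak named Tubb6 (-5.37 in the authors' deposited table) lies outside that gene, in the span of Afg3l2. Tuba1b had 4 iNKT peaks with none called, 2 of which lie in Tuba1a.

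Actin itself gave little. Actb, cytoplasmic beta-actin, had no row in the DP table and 2 in the iNKT table. By the authors' deposited table its 3' UTR peak had 0.32 (FDR 0.059) and the one classed as 5' UTR had -0.41 (FDR 0.26). Actr3, the Arp3 core of the Arp2/3 complex, fell in both cell types at different places. In the authors' deposited table it fell by 0.69 (FDR 0.04) at a DP peak classed as 5' UTR and fell by 2.62 (FDR 0.011) at a 3' UTR peak of 60 nt in iNKT cells. Actr1a, the filament protein of dynactin, fell by 2.27 (FDR 0.045) in iNKT cells in the authors' deposited table.

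Apart from Actr3, the Arp2/3 subunits (the Arpc genes) had 2 uncalled DP peaks and 4 iNKT peaks. Arpc5 fell at the start shown above, while a peak in its 3' UTR had 0.40 and was uncalled (FDR 0.76 in the authors' deposited table). Arpc3 rose by 5.86 (FDR 3.9e-06) over 60 nt of its 3' UTR in the authors' deposited table. The peak named Arpc1b (-5.09 in the authors' deposited table) lies in Pdap1, on that gene's strand. The actinin Actn4, a cross-linker of actin, fell by 3.90 (FDR 2.6e-06) at a 3' UTR peak in iNKT cells in the authors' deposited table, and its other 3 iNKT peaks were uncalled.

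Linkers and regulators held 7 of the 11 lower DP peaks and 10 of the 36 lower iNKT peaks. That is 17.1% and 41.7% of their peaks, against 0.743% and 19.8% of all peaks. These 9 genes were picked by name with earlier results of these data known, so the shares describe that choice and were not tested. In DP cells 29 of their 41 peaks were negative (median -0.30), where 49.7% of all DP peaks were (median 0.0). In iNKT cells 17 of 24 were (median -1.29), where 68.6% of all iNKT peaks were (median -0.98 in the authors' deposited table). All 9 of these genes had peaks in both tables, and 7 of them in DP and 8 in iNKT cells had a lower peak. Of all genes, 1.44% in DP and 26.2% in iNKT cells did.

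Ezr, which encodes ezrin, had a long DP peak, classed as 3' UTR (chromosome 17, 6739267 to 6753989, 1376 exonic nt) that fell by 0.20 (FDR 5.1e-08) in the authors' deposited table. Its iNKT peak at exon 8 of 13, inside that stretch, fell by 4.72 (FDR 1.0e-214) in the authors' deposited table, the smallest FDR of any member. Msn, which encodes the related moesin, fell by 2.54 (FDR 1.0e-174) at exon 8 of 13 in iNKT cells in the authors' deposited table. The DP peak there had -0.15 and was not called (FDR 0.14 in the authors' deposited table).

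Stmn1, which encodes stathmin, a protein that takes microtubules apart, fell by 0.30 (FDR 5.8e-06) in DP cells in the authors' deposited table. That peak, classed as 3' UTR, spans splice junctions over 562 exonic nt. In iNKT cells a 3' UTR peak of 90 nt in Stmn1 fell by 3.19 (FDR 0.001) in the authors' deposited table. Hcls1, an activator of Arp2/3 in blood cells, fell by 0.44 (FDR 0.026) in DP and by 1.89 (FDR 1.6e-16) in iNKT cells in the authors' deposited table. Marcks, a membrane protein that binds actin and is released by protein kinase C, fell by 0.40 (FDR 0.013) in DP and by 1.3 (FDR 0.043) in iNKT cells in the authors' deposited table. In each of these genes the iNKT peak shares bases with the DP peak.

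Lsp1, a leukocyte protein that binds actin filaments, changed in both directions. Its lower DP peak (-0.31, FDR 0.0056) overlaps an iNKT peak that fell by 2.51 (FDR 7.9e-11) in the authors' deposited table. On either side, iNKT peaks rose by 0.66 (FDR 8.5e-08) towards the start and by 1.0 (FDR 2.5e-05) towards the end in the authors' deposited table.

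Macf1, a giant linker of microtubules and actin, had 22 DP peaks, more than any other member, and 1 of them was called. That peak, at exon 9 of 98, had -1.0 close to the threshold (FDR 0.049 in the authors' deposited table). In iNKT cells, 2 of 5 Macf1 peaks fell, with -3.69 at exon 57 and -1.81 at exon 31 in the authors' deposited table. Iqgap1, a scaffold that binds actin and calmodulin, fell by 0.87 (FDR 0.028) at exon 23 of 38 in DP cells and fell by 2.23 (FDR 9.3e-05) in its 3' UTR in iNKT cells in the authors' deposited table. Neither gene fell at the same site in both cell types.

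Ssh2, a phosphatase that activates the actin-severing protein cofilin, was the only member with a higher DP peak, 2.58 (FDR 1.5e-04) over 297 nt in the authors' deposited table. The stretch also lies within the span of Gm12346, whose strand is not given. An iNKT peak within that stretch, sharing 209 nt with it, had -2.69 and was not called (FDR 0.27 in the authors' deposited table). Whether the cell types differ there was not tested.

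**Figure D3:**
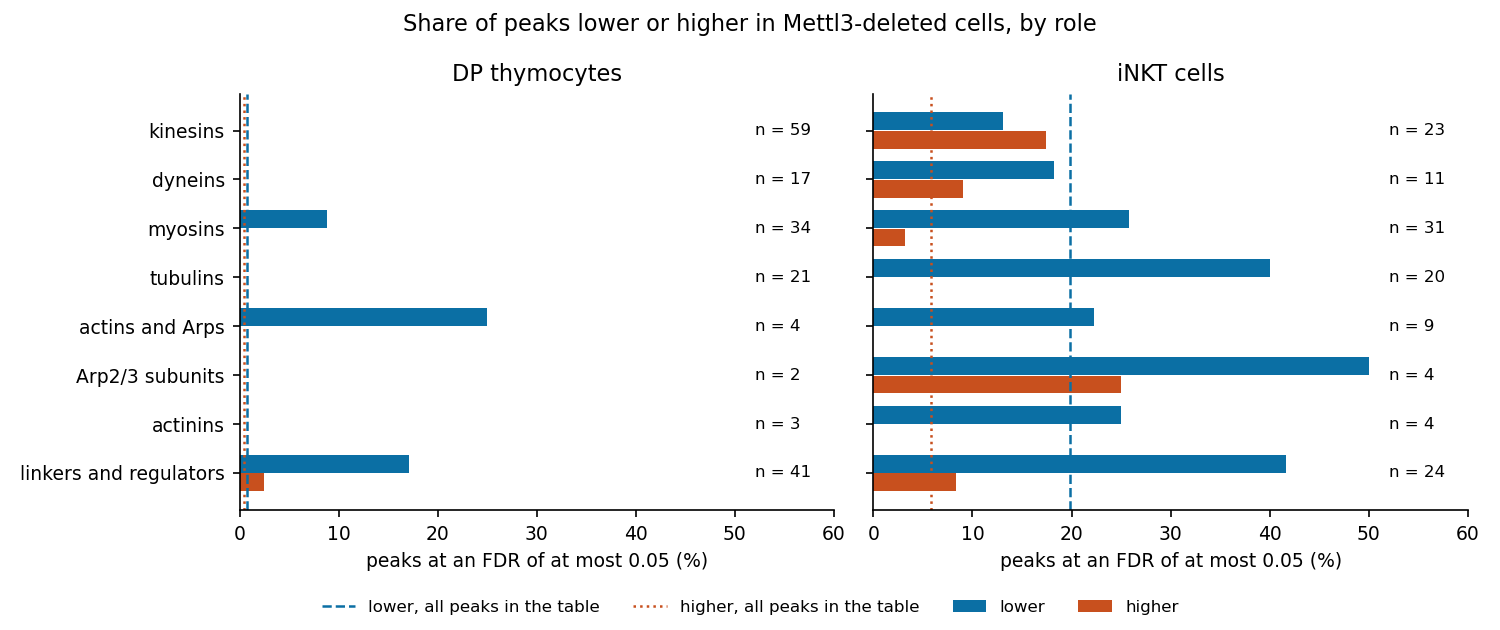
Percentage of member peaks called lower (blue) or higher (orange) in Mettl3-deleted cells, by role, with the number of peaks at the right and the share over all peaks of the table as vertical lines. In DP cells calls lie with myosins, actins and Arps, and linkers and regulators. Roles with 2 to 9 peaks hold at most 2 calls in either direction.

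Sites with a peak in both cell types were compared next, since DP and iNKT cells share no library. Of the member peaks, 48 of 181 in DP (26.5%) and 55 of 126 in iNKT (43.7%) shared at least 1 exonic base on the same strand with a member peak of the other table, giving 55 pairs in 37 genes. Over all peaks these shares were 36.4% and 42.7%. Of the 55 pairs, 5 share a single base. In iNKT cells 28 of the 55 pairs (50.9%) fell and 2 rose, against 38.8% and 2.68% of all 5755 pairs. Over the pairs, values of the authors' deposited table had a median of -0.10 in DP and -2.0 in iNKT cells (log2).

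Most DP falls recurred as iNKT falls. Of the 11 lower DP peaks, 8 met an iNKT peak, and 7 of these met one that fell: 2 in Myh9, and those in Ezr, Stmn1, Hcls1, Lsp1 and Marcks. Over all genes, 37 of 100 lower DP peaks met an iNKT peak and 28 of these a lower one in the authors' deposited table. The exception was the Myh9 peak with the smallest DP FDR, whose iNKT counterpart at exon 36 had -0.17 (FDR 0.15 in the authors' deposited table). By gene, 9 of the 10 members called in DP were also called in iNKT cells, Ssh2 being the other. That is 90.0%, against 61.2% of all 152 genes called in DP. Of the 9 members with a lower DP peak, 7 are linkers and regulators picked by name with earlier results known, and the 90.0% was not tested. Of genes with peaks in both tables, 57.1% of members and 42.4% of all were called in iNKT cells. The iNKT change was the larger in 47 of 55 pairs (85.5%, against 83.0% of all pairs), though the tables were made separately and possibly with different protocols, and the sizes are set side by side here, not tested.

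**Figure D4:**
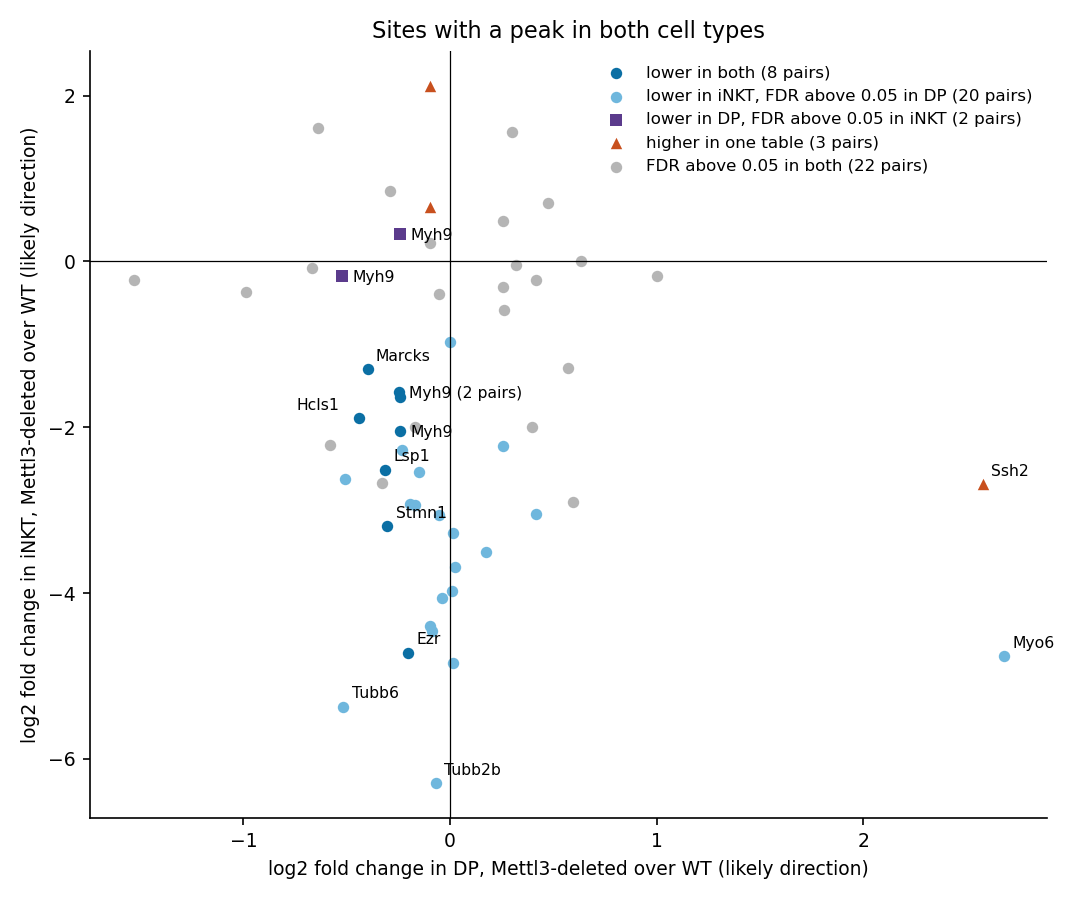
Log2 fold change (Mettl3-deleted over WT, likely direction) in DP (x axis) and iNKT cells (y axis) for the 55 pairs of overlapping member peaks, coloured by call. The 8 pairs lower in both lie between -0.44 and -0.20 in DP and between -4.72 and -1.3 in iNKT cells.

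Falls in iNKT cells also occurred where DP cells had no peak of the group: 8 of the 71 unmatched iNKT peaks fell (11.3%, against 6.03% of all unmatched iNKT peaks) and 7 rose (9.86%, against 8.24%). Member peaks differed from the rest of the tables in form. In DP cells 47.0% spanned a splice junction, against 29.1% of all peaks, and 10 of the 11 lower ones did, as did 82 of the 100 lower peaks of the whole table. In iNKT cells 29.4% did, against 15.2% of all peaks, and 16 of the 36 lower ones (44.4%, against 26.1% of all lower peaks). By the authors' classes, 61.9% of DP member peaks were exonic outside untranslated regions (45.9% of all) and 29.3% in the 3' UTR (45.5% of all). In iNKT cells these were 44.4% (39.8%) and 37.3% (45.2%).

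Lower members were, at the median, more strongly supported than uncalled ones. The 11 lower DP peaks had a median length of 562 exonic nt and a median -log10 peak p of 162, against 211 nt and 5.9 for the 169 uncalled. In iNKT cells the 36 lower peaks had 205.5 and the 81 uncalled 12.5. Single peaks went the other way: the uncalled Myh9 peak at exon 36 had 1850 and the lower Marcks peak 11.4. With each table cut into 4 equal groups by peak p, the group with the smallest p-values held 8 of the 11 lower DP and 25 of the 36 lower iNKT member peaks. That group held 51 DP and 38 iNKT member peaks in all, so 8 of 51 and 25 of 38 were lower there. Lower calls made up 2.32% of that group over all DP peaks and 62.8% over all iNKT peaks, against 0.0297% and 0.159% in the group with the largest p-values. The 9 higher iNKT members lay elsewhere, 8 in the group with the next smallest p-values and 1 in the one after. The part of peak strength and length in the calls was not tested.

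Outside the group, a list of 68 further gene symbols, most of them for regulators of actin and microtubules, had peaks for 43 genes in DP and 45 in iNKT cells. In DP cells 2 of these genes fell, Map4, a microtubule stabiliser (-0.86), and Ppp1r12a, the myosin phosphatase subunit (-0.83), and 2 rose, Rhoh (0.43) and Tmsb4x (0.34), in the authors' deposited table. These are 4.65% of the 43 genes each way, against 1.44% of all DP genes for lower and 0.876% for higher. In iNKT cells 16 had a lower peak (35.6%, against 26.2% of all iNKT genes) and 13 a higher one (28.9%, against 9.64%), with a median of -0.45 over 102 peaks in the authors' deposited table.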

How the data were processed

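The series holds 20 libraries in 8 groups. Per the submitters' processing notes, the build was mm10 and the tools included HOMER 4.9.1, RSEM 1.3.0, STAR 2.6.0a, Trim Galore 0.6.5 and FastQC 0.11.5. The deposited tables carry the name exomePeak, a program for m6A peaks and their differences. Its settings, and whether replicates were pooled, are not stated in those sources. Per the file headers, each deposited row gives a peak p-value, a fold enrichment over input (linear ratio), a log2 fold change between genotypes, and log10 values of p and FDR, handled as scores. The deposited gene lists hold symbols.

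Rows with equal coordinates, strand and blocks were kept 1 time (5 DP and 24 iNKT rows removed, 0 of them members). Peaks were placed against RefSeq gene spans (81 of 83 members matched, 64 with a strand), and 155 DP and 104 iNKT member peaks lay within the named gene. Within the named gene were 12 of 12 called DP and 41 of 45 called iNKT members. DP and iNKT peaks were paired by at least 1 shared exonic base. No test was run, since the tables hold no value per library. The planned search of whole peaks for GGAC and GGACT was not run, because no genome was used. Intervals of medians come from ranked values (binomial, 95%) and treat peaks as independent. Matching, calling and these intervals were tested on simulated data. Members and lists were chosen with earlier results of these data known.

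Genes were named by rule: all called DP members, and per role up to 4 lower and 3 higher iNKT peaks by size. Genes with the most peaks, both signs or calls in both tables, and matched called sites, were added. Other members were named after their values were seen. Alternatives covered the FDR, the size of change, enrichment, repeated rows, placement, 1 peak per gene, the overlap and, added later, leaving out Myh9. Values were computed with pandas 2.3.3 and numpy 2.4.6 in Python 3.11.15, intervals with SciPy 1.17.1 and figures with matplotlib 3.10.9.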

Additional observations from a re-analysis of the deposited data

How the results depend on the processing

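Of 40 alternative values, 35 stayed within 1.5 times the count or within the interval of the median. The 35 include values that could not change: 0 member rows were repeated, so keeping repeated rows altered nothing. The higher DP count rests on 1 peak. The 5 values that moved come next, and most concern the lower DP peaks. At an FDR of 0.01 the lower DP peaks numbered 6 (3.31% of members, against 0.297% of all peaks). With a change of at least 2-fold 1 remained (Macf1, 0.552% of members, against 0.0743% of all peaks). With 1 peak per gene the lower DP count was 6 of 66 genes (9.09%, against 0.846% of all genes), the higher iNKT count 4 of 66 (6.06%, against 5.43%) and the iNKT median -1.555 (all genes -1.32). The cause was not tested. Without Myh9, an alternative chosen after seeing the data, 8 of 177 DP peaks (4.52%) and 31 of 117 iNKT peaks (26.5%) were lower. Over all peaks, with Myh9 kept, these shares were 0.743% and 19.8%. Asking for 50% of the shorter peak left 40 matched DP member peaks of 48.

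No paired analysis was possible because the tables hold no values per replicate, and for the same reason leaving out a replicate was not run. The search for GGACT was not run. Depth is unknown, and a site with no peak is not thereby unmethylated.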
